A study of Mus musculus with 8 samples.

Results

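RNA of CD45+F4/80+ macrophages sorted from subcutaneous B16 melanomas on day 14 was examined for 8 genes of the Fc receptors for immunoglobulin, chosen by gene symbol: Fcgr1, Fcgr2b, Fcgr3, Fcgr4, Fcer1g, Fcgrt, Fcrl5 and Fcrls. They are 8 of 16786 genes measured in all 7 complete libraries. The libraries were 4 from wild-type C57BL/6 mice (TAM-WT) and 4 from Colec11-/- mice of the same strain (TAM-KO), which lack a working gene for the lectin collectin-11, and the labels name no treatment other than the tumor. According to the study's methods, the knockout mice had been backcrossed to this strain, the wild-type mice were their littermates, and the animals were young adult males unless stated otherwise. The labels do not say whether each library came from 1 mouse, but the study's figure legend for these data gives 4 mice per group. The p-values measure the spread between these libraries. B16 is a pigmented mouse melanoma line from the same strain. Before the sort the cells were blocked with antibody to CD16/CD32, the protein products of Fcgr3 and Fcgr2b, and the values given here are of RNA only.

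Fc receptors bind the constant part of antibodies and so link a target coated with IgG to the cell that engulfs or kills it. In mice Fcgr1, Fcgr3 and Fcgr4 encode activating IgG receptors, which signal through the common gamma chain encoded by Fcer1g and its immunoreceptor tyrosine-based activation motif (ITAM), while Fcgr2b encodes the inhibitory IgG receptor, whose cytoplasmic motif recruits phosphatases. Fcgrt encodes the heavy chain of the neonatal receptor FcRn, which recycles IgG inside cells, and Fcrl5 and Fcrls encode Fc receptor-like proteins, the former best known from B cells and the latter from microglia.

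In TAM-KO the activating receptor transcript Fcgr4 was 2.37-fold higher, while the inhibitory receptor transcript Fcgr2b was 1.71-fold lower and Fcrls was 3.12-fold lower. These 3 of the 8 genes passed edgeR's quasi-likelihood test at 0.05, adjusted over the 12412 genes tested, 1 of them higher and 2 lower in TAM-KO, and all 8 genes had passed the filter on low counts. Of all genes tested 9.81% passed, with 4.58% higher and 5.24% lower in TAM-KO. Fcgr4 and Fcrls also changed at least 2-fold, as 2.53% of all genes tested did. Fcgr1, Fcgr3, Fcer1g, Fcgrt and Fcrl5 did not pass. The calls rested on several libraries, as 0 of the 8 genes passed without TAM-WT replicate 3 or 4 or TAM-KO replicate 2 or 3, when 151, 416, 77 and 77 of all genes passed, and 5 of the 8 passed without TAM-WT replicate 2, when 2755 of all genes did. The median log2 fold change of the 8 genes was 0.00902, beside 0.00163 for all genes tested, with members on either side of 0. The study had itself named Fcgr4 and Fcgr1 as M1 markers from these libraries, so their direction here is not independent of that choice.

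Reads on genes numbered from 16225362 to 17280267 in the 7 complete libraries. The table of TAM-KO replicate 1 lacks a run of genes that holds Fcgr1, Fcgr2b, Fcgr3, Fcer1g and Fcgrt. Its FPKM (fragments per kilobase of transcript, scaled to the mapped fragments of the library) for Fcgr1 and Fcgr2b was taken from the deposited table of the whole series, while Fcgr3, Fcer1g and Fcgrt have 3 TAM-KO values. The test of these 5 genes used 4 TAM-WT and 3 TAM-KO libraries, that of Fcgr4, Fcrl5 and Fcrls 4 and 4. Colec11 had at most 4 counts in any TAM-WT library and 1 count in each TAM-KO library, too few to check the genotype. The macrophage markers were abundant in both groups, with Lyz2 at 7640 ± 1010 FPKM (SD, n = 4) and C1qa at 1790 ± 220 FPKM (SD, n = 4) in TAM-WT. In TAM-KO they were at 5400 ± 1170 FPKM (SD, n = 4) and 2100 ± 54.3 FPKM (SD, n = 3). Their log2 fold changes were -0.70 and 0.13, and neither passed (adjusted p = 0.0548 and 0.447, edgeR).

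Fcgr2b, Fcgr4, Fcgr3 and Fcer1g lie in 1 cluster on mouse chromosome 1 (RefSeq, GRCm38.p6, the build named in the submitters' processing notes). Fcgr2b (NCBI gene 14130, chr1:170960558-170976071, minus strand), Fcgr4 (NCBI gene 246256, chr1:171018926-171029761, plus strand) and Fcgr3 (NCBI gene 14131, chr1:171051169-171065915, minus strand) follow each other with 42.9 and 21.4 kb between them, and Fcer1g (NCBI gene 14127, chr1:171229572-171234349, minus strand) lies 163.7 kb beyond Fcgr3. Fcgr1 (NCBI gene 14129, chr3:96282909-96293969, minus strand), Fcrls (NCBI gene 80891, chr3:87250736-87263765, minus strand) and Fcrl5 (NCBI gene 329693, chr3:87435777-87500678, plus strand) are on chromosome 3, and Fcgrt (NCBI gene 14132, chr7:45092993-45103822, minus strand) is on chromosome 7. Within the cluster the changes did not run together, since the neighbors Fcgr2b and Fcgr4, transcribed away from each other, changed in opposite directions. Of the 10 genes tested in the 327.6 kb from Fcrlb to Fcer1g, Fcgr2b and Fcgr4 were the 2 that passed in edgeR's test, beside 9.81% of all genes. Pcp4l1 at -1.28, Fcrlb at -0.69 and Cfap126 at -0.58 on the log2 scale did not pass (adjusted p = 0.054, 0.078 and 0.0738, edgeR). Pcp4l1 and Cfap126 were named after their values were seen. Besides Fcgr4 only Fcrla was above 0, at 0.08. Fcgr3, on the far side of Fcgr4, differed by -0.26 ± 0.12 (SE) on the log2 scale.

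**Figure D1:**
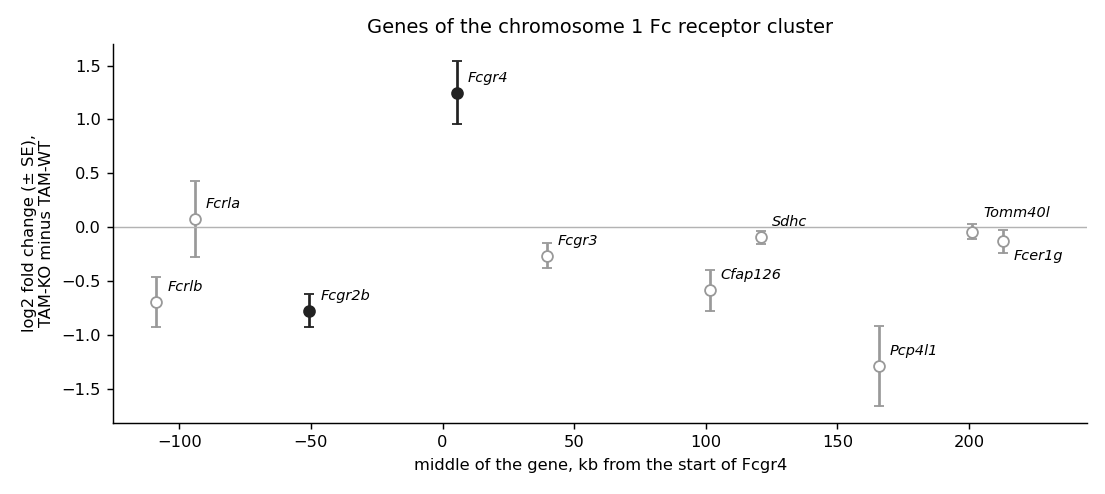
Log2 fold change (TAM-KO minus TAM-WT, ± SE from edgeR) of the 10 tested genes from Fcrlb to Fcer1g, against the distance in kb of the middle of each gene from the start of Fcgr4, with filled points for an adjusted p of at most 0.05. Fcgr4 at 1.25 and Fcgr2b at -0.77 are the filled points, and Fcgr3 and Fcer1g lie near 0. Open points further from 0 are Pcp4l1 at -1.28, Fcrlb at -0.69 and Cfap126 at -0.58.

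The 250 bases upstream of the start site are printed for Fcgr4, Fcgr1 and Fcgr2b, the IgG receptors of which the FPKM values of the groups did not overlap. They are RefSeq sequences of GRCm38.p6 read 5′ to 3′ on the strand of the gene, at chr1:171018676-171018925, chr3:96293970-96294219 and chr1:170976072-170976321. Capitals mark matches on either strand to 3 motifs chosen for factors known from macrophages, of which none overlap: GAAANNGAA, a spaced repeat of GAA as in interferon-stimulated response elements, GGAANNGAA, a composite site of ETS and IRF factors, and GAGGAA, the core bound by PU.1.
Fcgr4: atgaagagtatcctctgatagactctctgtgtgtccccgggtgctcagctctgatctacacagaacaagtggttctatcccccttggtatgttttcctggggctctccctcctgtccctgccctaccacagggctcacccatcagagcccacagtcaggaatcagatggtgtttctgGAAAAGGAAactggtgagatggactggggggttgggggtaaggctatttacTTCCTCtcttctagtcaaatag
Fcgr1: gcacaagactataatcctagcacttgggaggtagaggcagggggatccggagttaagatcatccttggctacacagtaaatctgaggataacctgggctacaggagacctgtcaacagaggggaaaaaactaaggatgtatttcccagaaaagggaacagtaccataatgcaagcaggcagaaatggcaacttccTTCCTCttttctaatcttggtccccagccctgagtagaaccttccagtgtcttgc
Fcgr2b: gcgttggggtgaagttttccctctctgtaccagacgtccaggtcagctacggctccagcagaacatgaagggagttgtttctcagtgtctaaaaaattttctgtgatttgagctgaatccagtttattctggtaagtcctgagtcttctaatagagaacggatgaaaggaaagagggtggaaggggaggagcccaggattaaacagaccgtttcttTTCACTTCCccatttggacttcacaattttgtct
The Fcgr4 window holds GAAAAGGAA with its first base 73 bases before the start, and GAGGAA on the other strand 22 bases before it. That of Fcgr1 holds GAGGAA on the other strand 55 bases before the start. In the Fcgr2b window the composite stands on the other strand, as TTCACTTCC, 34 bases before the start. Of the members not printed, Fcrls, lower in TAM-KO, holds GAGGAA 144 bases before the start. Fcgr3, with a log2 fold change of -0.26, holds it on the other strand 6 bases before the start, in the first of 2 windows listed. Of 32851 promoter windows of this length in the RefSeq table, 7.13% hold GAAANNGAA, 6.99% GGAANNGAA and 23.3% GAGGAA. A match describes the letters of a window and is no measurement of binding.

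Fcgr4 encodes FcγRIV, an activating receptor for IgG2a and IgG2b of monocytes and macrophages. It was at 79.5, 33.03, 47.92 and 56.76 FPKM in TAM-WT (replicates 1 to 4), and at 98.07, 181.19, 183.67 and 92.81 FPKM in TAM-KO (replicates 1 to 4). The groups did not overlap, and within TAM-KO replicates 2 and 3 stood well above replicates 1 and 4. The means were 54.3 ± 19.4 and 139 ± 50.3 FPKM (SD, n = 4 each). On the counts edgeR gave a log2 fold change of 1.25 ± 0.29 (SE, adjusted p = 0.0326). Without TAM-KO replicate 2 or 3 the change was still over 2-fold, at 1.10 and 1.09 on the log2 scale, but did not pass (adjusted p = 0.108 and 0.101 from edgeR), nor did it pass without TAM-WT replicate 3 or 4.

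Fcgr1, which encodes CD64, the high-affinity IgG receptor of macrophages, was at 90.46, 57.59, 77.26 and 94.54 FPKM in TAM-WT (replicates 1 to 4) and at 109.63, 119.25, 126.99 and 116.57 FPKM in TAM-KO (replicates 1 to 4). Every TAM-KO value was above every TAM-WT value, but the nearest were 1.16-fold apart. The difference of 0.49 ± 0.17 on the log2 scale (SE) did not pass in edgeR (adjusted p = 0.0963). It passed without TAM-WT replicate 2, the lowest library (0.34, adjusted p = 0.0245 from edgeR), and in DESeq2's Wald test (adjusted p = 0.0495). In limma on log2(FPKM + 1), which uses all 8 libraries, it passed as well (0.58, adjusted p = 0.0372). There the value of TAM-KO replicate 1 came from the deposited table of the whole series, and edgeR with the same fill did not call Fcgr1 (0.44, adjusted p = 0.0918).

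Fcgr3 encodes CD16, the low-affinity activating receptor. Its FPKM was 494, 375.98, 464.2 and 445.95 in TAM-WT and 376.54, 406.78 and 410.27 for replicates 2 to 4 of TAM-KO. The groups overlapped, because TAM-WT replicate 2 lay below the TAM-KO libraries, and the log2 fold change was -0.26 ± 0.12 (SE, adjusted p = 0.174 from edgeR). Without TAM-WT replicate 2 Fcgr3 passed as lower in TAM-KO (-0.35, adjusted p = 0.0221 from edgeR).

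Fcgr2b encodes CD32, the inhibitory receptor. It was at 425.03, 330.59, 473.4 and 355.71 FPKM in TAM-WT (replicates 1 to 4) and at 259.16, 232.05, 273.43 and 242.14 FPKM in TAM-KO (replicates 1 to 4). The groups did not overlap, and the TAM-KO values lay close together. The means were 396 ± 65.2 and 252 ± 18.3 FPKM (SD, n = 4 each). On the counts of 7 libraries, without TAM-KO replicate 1, edgeR gave a log2 fold change of -0.77 ± 0.15 (SE, adjusted p = 0.0279). Leaving out 1 library at a time kept the log2 fold change between -0.87 and -0.64, and the test did not pass without TAM-WT replicate 3 or 4 or TAM-KO replicate 2 or 3, with adjusted p of 0.0551, 0.0510, 0.110 and 0.0856 from edgeR. Fcgr2b and Fcgr3 are close relatives, and 9.58% of the 50-base words of the GENCODE transcripts of Fcgr3 also occur in those of Fcgr2b. The expected counts of both genes were within 0.02 of a whole number in every library, so hardly any read had been divided between genes.

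Fcer1g was the most abundant of the 8 genes, at 2195.66, 1672.55, 2024.19 and 1998.24 FPKM in TAM-WT and 1895.8, 1990.41 and 1843.58 FPKM in TAM-KO (replicates 2 to 4). The groups overlapped, and the gamma chain differed by -0.13 ± 0.11 on the log2 scale (SE, adjusted p = 0.453, edgeR). Fcgrt was at 60.35, 49.12, 49.35 and 64.57 FPKM in TAM-WT and at 73.69, 49.6 and 76.04 FPKM in TAM-KO (replicates 2 to 4), overlapping as well. The difference was 0.15 ± 0.17 on the log2 scale (SE, adjusted p = 0.592, edgeR). Neither passed in any fit that left out 1 library, and the log2 fold change of Fcgrt then ran from 0.01 to 0.33.

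Fcrls was at 133.14, 123.35, 142.93 and 137.52 FPKM in TAM-WT, the most even of the members there, and at 64.31, 22.9, 23.63 and 72.41 FPKM in TAM-KO (replicates 1 to 4). All TAM-KO libraries were below the lowest TAM-WT library, and replicates 2 and 3, highest for Fcgr4, were lowest for Fcrls. The means were 134 ± 8.29 and 45.8 ± 26.2 FPKM (SD, n = 4 each). On the counts edgeR gave a log2 fold change of -1.64 ± 0.36 (SE, adjusted p = 0.0295). As with the other genes that passed, the test failed without TAM-WT replicate 3 or 4 or TAM-KO replicate 2 or 3, with log2 fold changes from -1.61 to -1.41 in these 4 fits.

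Fcrl5 was the least abundant member, with 0.56, 0.23, 0.21 and 1.82 FPKM in TAM-WT and 0.79, 6.47, 8.52 and 1.25 FPKM in TAM-KO (replicates 1 to 4). The level rests on few reads, from 6.01 expected counts in TAM-WT replicate 3 to 270 in TAM-KO replicate 3. TAM-KO replicates 1 and 4 lay within the TAM-WT range, and replicates 2 and 3 far above it. The difference of 2.57 ± 0.88 on the log2 scale (SE) failed the test (adjusted p = 0.0838, edgeR). Genes that define B cells were near 0 (Ms4a1 and Pax5 at most 0.11 FPKM in any library), and of 3 tested 0 passed in edgeR, with a median log2 fold change of -0.522. The most abundant of the list, Cd79b, was at 9.67 and 9.95 FPKM in TAM-KO replicates 2 and 3, beside 2.81 to 6.33 FPKM elsewhere, while Cd79a, its partner in the B cell receptor, stood at -0.52 on the log2 scale without passing, from 0.47 to 1.41 FPKM in TAM-WT and from 0.33 to 0.80 FPKM in 3 TAM-KO libraries. The part of such cells in the Fcrl5 values was not tested.

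**Figure D2:**
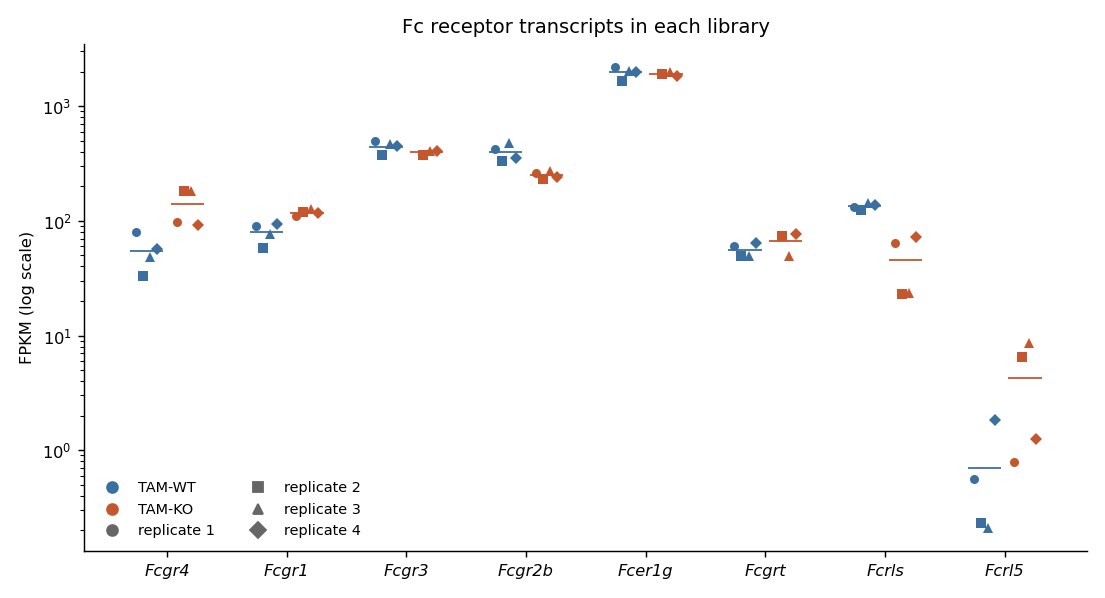
FPKM of the 8 genes in each library on a log scale, TAM-WT in blue and TAM-KO in orange, with 1 symbol per replicate number and a bar at the group mean. Fcgr4, Fcgr1, Fcgr2b and Fcrls have no overlap between the groups, Fcgr3, Fcer1g and Fcgrt have 3 TAM-KO points, and TAM-KO replicates 2 and 3 stand apart from 1 and 4 for Fcgr4, Fcrls and Fcrl5.

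**Figure D3:**
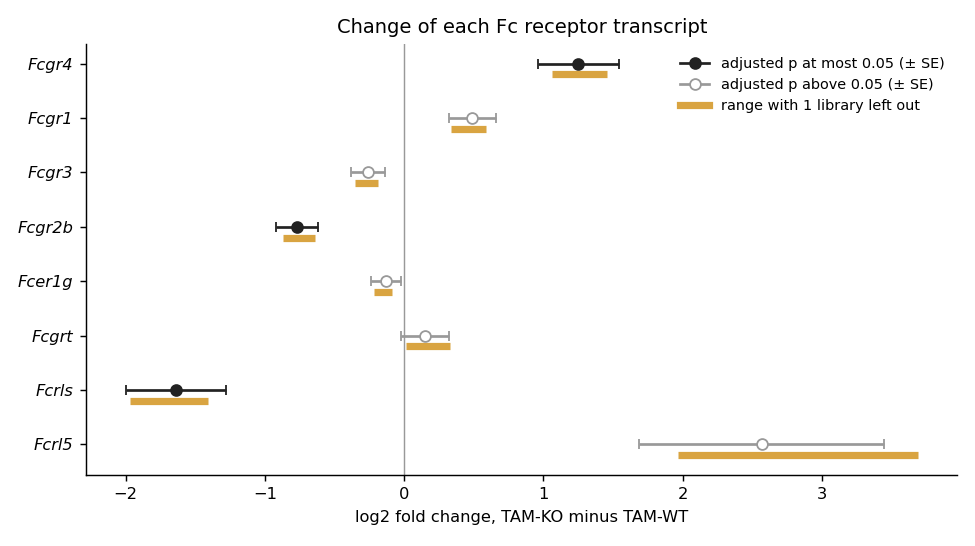
Log2 fold change (TAM-KO minus TAM-WT) of each gene with its standard error from edgeR, filled where the adjusted p was at most 0.05, and in yellow the range of the log2 fold change when 1 library was left out. The 3 filled points are Fcgr4 at 1.25, Fcgr2b at -0.77 and Fcrls at -1.64, and no range crosses 0.

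For 4 of the 8 genes, Fcgr4, Fcgr1, Fcgr2b and Fcrls, the FPKM values of the groups did not overlap, beside 18.9% of all genes tested. TAM-WT replicate 2 held the lowest TAM-WT value for 7 of the 8 genes, all but Fcrl5. In that library the summed FPKM of 7 melanoma markers (Mlana, Pmel, Tyr, Tyrp1, Dct, Mitf and Sox10) was 4380, beside 1960 to 2640 in the other TAM-WT and 3820 to 5060 in the TAM-KO libraries. Of these 7 markers 1 passed as higher in TAM-KO in edgeR, beside 4.58% of all genes. It was Sox10, named after its value was seen, and the median log2 fold change of the list was 0.587. DESeq2 called 5 of the 7, all higher, beside 18.2% of all genes, and 6 had an unadjusted p under 0.05, beside 30.7%. The most abundant, Pmel and Dct, had log2 fold changes of 0.59 and 0.49. In bulk RNA of sorted cells, fewer cells of a type cannot be told apart from less of a transcript per cell, and the part of melanoma RNA in these values was not tested. When 7 libraries were scaled to the 10 macrophage markers, which does not use melanoma genes, the log2 fold change was 1.55 for Fcgr4, -0.65 for Fcgr2b and -1.77 for Fcrls, and 5 of the 8 genes passed, the 3 named and Fcgr1 and Fcrl5, beside 5.03% of all genes. That fit left out TAM-KO replicate 1 for every gene, which without the change of scaling gave 3 of the 8 and 5.47% of all genes. The 10 macrophage markers were not constant, with log2 fold changes from -0.70 to 0.89 and a median of -0.204 in the main test. Scaling to them put the median log2 fold change of all genes at 0.0983, and it was added after the data were seen.

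In order of their mean FPKM, which is a level per transcript length, TAM-WT held Fcer1g, Fcgr3, Fcgr2b, Fcrls, Fcgr1, Fcgrt, Fcgr4 and Fcrl5. Compared within libraries, Fcgr1 lay above Fcgrt and Fcgr4 in 4 of 4 TAM-WT libraries, while Fcgr3 lay above Fcgr2b, and Fcgrt above Fcgr4, in 3 of 4, so that the order of these 2 pairs is not set. In TAM-KO the order was Fcer1g, Fcgr3, Fcgr2b, Fcgr4, Fcgr1, Fcgrt, Fcrls and Fcrl5. There Fcgr3 lay above Fcgr2b in 3 of 3 libraries with both values. Fcgr4 had moved from the seventh to the fourth place but lay above Fcgr1 in 2 of 4 libraries, and Fcrls from the fourth to the seventh place, below Fcgrt in 3 of 3 libraries.

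The balance of activating to inhibitory IgG receptor transcripts was taken within each library as the FPKM of Fcgr1, Fcgr3 and Fcgr4 over that of Fcgr2b, a ratio that does not change with the scaling of the library. In TAM-WT it was 1.56, 1.41, 1.24 and 1.68 (replicates 1 to 4), against 2.92, 2.62 and 2.56 for TAM-KO replicates 2 to 4. The lowest TAM-KO value was above the highest TAM-WT value, with means of 1.47 ± 0.188 (SD, n = 4) and 2.70 ± 0.191 (SD, n = 3), which is 1.83-fold higher in TAM-KO. No p is given for the ratios, since their genes were chosen with results of these data known.

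Each activating receptor alone also had a higher ratio to Fcgr2b in TAM-KO without overlap. These ratios share Fcgr2b as denominator, which was lower in TAM-KO, and the FPKM of Fcgr3 itself was 445 ± 50.1 (SD, n = 4) in TAM-WT and 398 ± 18.5 (SD, n = 3) in TAM-KO, so that its ratio was higher while its own level was not. Fcgr4 over Fcgr2b was 0.187, 0.0999, 0.101 and 0.16 in TAM-WT and 0.378, 0.781, 0.672 and 0.383 in TAM-KO (replicates 1 to 4), a mean 4.04-fold higher. Fcgr1 over Fcgr2b was 2.31-fold higher, from 0.163 to 0.266 in TAM-WT and from 0.423 to 0.514 in TAM-KO. For Fcgr3 over Fcgr2b the mean was 1.41-fold higher, from 0.981 to 1.25 in TAM-WT and from 1.49 to 1.69 in 3 TAM-KO libraries. Most of the activating transcripts were Fcgr3 in both groups, so the larger ratios of Fcgr4 and Fcgr1 weighed less in the sum. Fcer1g over the sum of the 3 activating receptors, a ratio added after the values were seen, was 3.42 ± 0.123 (SD, n = 4) in TAM-WT and 2.85 ± 0.109 (SD, n = 3) in TAM-KO.

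**Figure D4:**
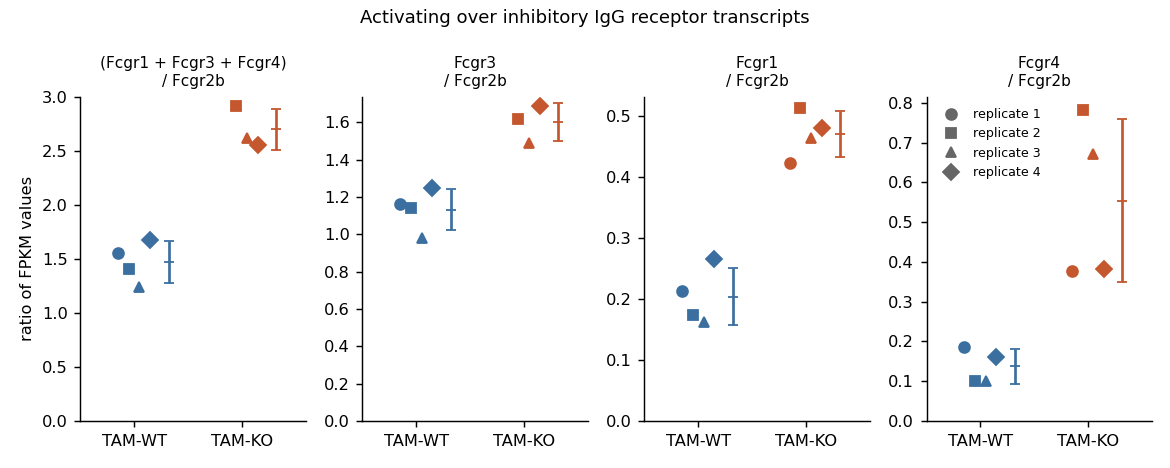
Ratios of FPKM of the activating receptors, together and each alone, to Fcgr2b in each library, with the group mean ± SD beside the points and axes that start at 0. TAM-KO lies above TAM-WT in all 4 panels, and TAM-KO replicate 1 has no Fcgr3 value and is missing from the 2 left panels.

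Other genes that bind or handle immunoglobulin were mostly at low levels. Of 13 listed, 10 had values and 7 passed the count filter. Trim21, the cytosolic Fc receptor, was at 5.91 ± 1.21 FPKM in TAM-WT and 9.29 ± 0.611 FPKM in TAM-KO (SD, n = 4 each). It was the 1 gene that passed, with a log2 fold change of 0.54 ± 0.14 (SE, adjusted p = 0.0403, edgeR), or 14.3% of the 7 beside 9.81% of all genes. With 1 library left out Trim21 passed in 3 of 8 fits. B2m, the light chain partner of Fcgrt and of MHC class I, had a log2 fold change of 0.41 (adjusted p = 0.204 from edgeR), and Tyrobp, the ITAM adaptor DAP12, of -0.18 (adjusted p = 0.187). Fcrlb and Fcrl1 were lower on average, by -0.69 and -0.89 on the log2 scale, without passing (adjusted p = 0.0780 and 0.0737, edgeR). Fcrla and Fcer2a stayed at or under 0.58 FPKM in every library. Ms4a2, the beta chain of the IgE receptor, had at most 1 count in any library, and of the ligands listed, Jchain and Ptx3 were too low to be tested, with at most 17 and 5 counts.

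Receptors that signal through the gamma chain without binding IgG were tested in 5 of 8 cases. Clec4n, which encodes the C-type lectin Dectin-2, was the 1 that passed, at 296 ± 57.8 FPKM in TAM-WT and 166 ± 55.0 FPKM in TAM-KO (SD, n = 4 each), with a log2 fold change of -0.95 (standard error 0.25, adjusted p = 0.0431 from edgeR). Of all genes tested 9.81% passed. With 1 library left out Clec4n passed in 3 of 8 fits. Of the 5 genes 0 passed in edgeR without TAM-WT replicate 3 or 4 or TAM-KO replicate 2 or 3. Without TAM-WT replicate 1 or 2 the count was 2. The median of the 5 was -0.837, beside 0.00163 for all genes tested.

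Downstream of the receptors, of 20 ITAM kinases and adaptors 1 passed as higher and 2 as lower in TAM-KO, or 15.0% beside the 9.81% of all genes. Src, a kinase of the family that phosphorylates ITAMs, had a log2 fold change of 0.61 (adjusted p = 0.0403 from edgeR), and the adaptors Blnk and Lat2 had -0.57 and -0.50 (adjusted p = 0.0398 and 0.0488). Lyn, the most abundant of the list at 89.5 ± 12.1 FPKM in TAM-WT (SD, n = 4), had 0.27 and did not pass. Src was at 8.12, 11.76, 6.11 and 6.59 FPKM in TAM-WT (replicates 1 to 4) and from 12.31 to 14.18 FPKM in TAM-KO. Within TAM-WT it was highest in replicate 2, as the melanoma markers were, and the part of melanoma RNA in Src was not tested. The median of the 20 was -0.00107. At an unadjusted p under 0.05 there were 12 of the 20, beside 30.7% of all genes, and DESeq2 called 7, beside 18.2% of all genes. Without TAM-WT replicate 2, 11 of the 20 passed, and without TAM-WT replicate 3 or 4 or TAM-KO replicate 2 or 3, 0 did.

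Of the 10 phosphatases, adaptors and ligases that act with Fcgr2b or end the signal, 0 passed in edgeR, 1 in DESeq2's Wald test, and 4 had an unadjusted p under 0.05. Of all genes 9.81%, 18.2% and 30.7% did so. The most abundant, Ptpn6, which encodes the phosphatase SHP-1, differed by 0.40 ± 0.13 on the log2 scale (SE, adjusted p = 0.0867, edgeR). Among 15 genes of the NADPH oxidase and of actin remodeling, which carry out engulfment, 1 passed in edgeR, or 6.67% beside 9.81% of all genes. DESeq2 called 4 of the 15, and 4 had an unadjusted p under 0.05. Myo10, a myosin of phagocytic cups, had a log2 fold change of 0.66 (standard error 0.12, adjusted p = 0.0210 from edgeR), while Arpc2, the most abundant, had -0.28 (adjusted p = 0.0752). Myo10 was at 7.42, 8.92, 5.73 and 5.92 FPKM in TAM-WT (replicates 1 to 4) and from 9.80 to 12.24 FPKM in TAM-KO. Within TAM-WT it was highest in replicate 2, where the melanoma markers were also highest, and the part of melanoma RNA was not tested.

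The KEGG pathway of Fc gamma receptor-mediated phagocytosis, as annotated in the deposited tables, held 89 genes with values, and 83 were tested. Of these 7 passed in edgeR, 3 higher and 4 lower in TAM-KO, which is 8.43% beside 9.81% of all genes, and their median log2 fold change was -0.00628. DESeq2 called 19 of the 83, beside 18.2% of all genes, and 28 had an unadjusted p under 0.05, beside 30.7%. The 3 higher were Fcgr4, Myo10 and Pla2g6, a calcium-independent phospholipase with a log2 fold change of 0.61. Pla2g6 was at 5.74, 7.14, 4.18 and 4.24 FPKM in TAM-WT (replicates 1 to 4) and from 8.07 to 9.53 FPKM in TAM-KO. Like Myo10 and the melanoma markers it was highest in replicate 2 within TAM-WT, and the part of melanoma RNA was not tested. Fcgr2b, Arpc3 at -0.43 and Mapk3, which encodes ERK1, at -0.41 led the 4 lower, the last being Asap1 at -0.38, named after its value was seen. Cfl1, the most abundant gene of the pathway, encodes the actin-severing cofilin and had a log2 fold change of -0.25 (adjusted p = 0.124 from edgeR). The count of 7 became 28 without TAM-WT replicate 2, 1 without TAM-WT replicate 4, and 0 without TAM-WT replicate 3 or TAM-KO replicate 2 or 3.

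**Figure D5:**
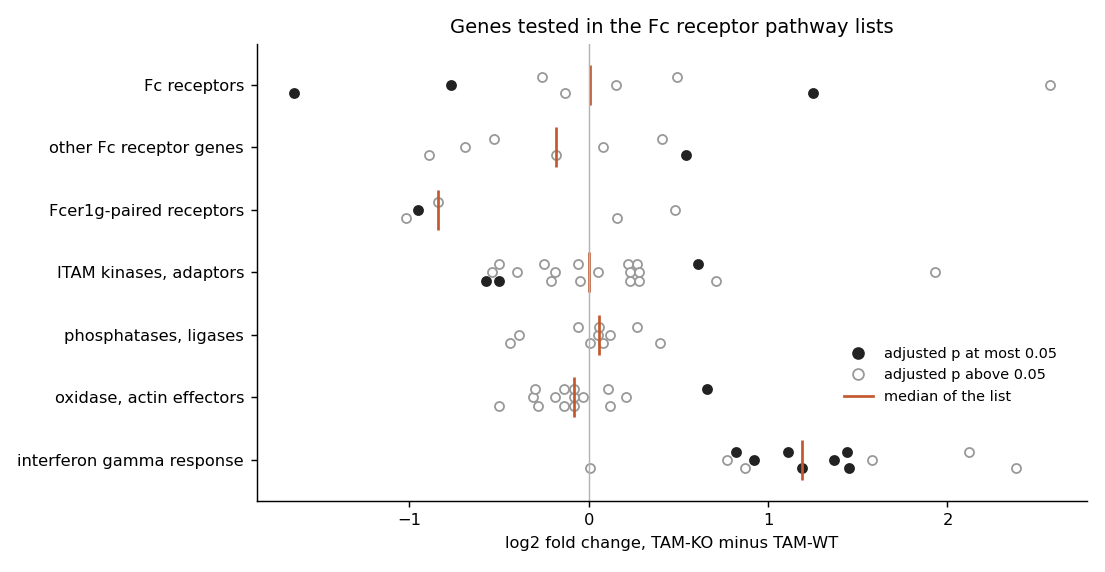
Log2 fold change (TAM-KO minus TAM-WT) of each tested gene in the Fc receptor lists and in the interferon gamma response list, filled where the adjusted p from edgeR was at most 0.05, with a line at the median of each list. The receptors spread from -1.64 to 2.57, the kinases, phosphatases and effectors lie close to 0 apart from few genes, and 7 of 13 interferon gamma response genes are filled, all to the right of 0.

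Interferon gamma is a cytokine known to raise Fcgr1 and Fcgr4 in macrophages. Of 13 tested genes of the response to it, 7 passed as higher and 0 as lower in TAM-KO, or 53.8% beside the 4.58% of all genes, with a median log2 fold change of 1.19. The 6 others, named after their values were seen, were Irf8, Ciita, Cxcl9, Gbp2, Gbp5 and Tap1, with log2 fold changes from 0.01 for Irf8 to 2.38 for Cxcl9. In edgeR 3 of the list passed without TAM-WT replicate 4, and 0 without TAM-WT replicate 3 or TAM-KO replicate 2 or 3. Socs1, Gbp3 and Nlrc5 had log2 fold changes of 1.45, 1.44 and 1.37, and the most abundant, Cxcl10, was at 110 ± 19.8 FPKM in TAM-WT and 214 ± 59.3 FPKM in TAM-KO (SD, n = 4 each). The summed FPKM of 12 of the genes was 490, 221, 261 and 381 in TAM-WT and 589, 907, 1080 and 635 in TAM-KO (replicates 1 to 4). As for Fcgr4, TAM-KO replicates 2 and 3 were highest and TAM-WT replicate 2 lowest. The part of this response in the receptor values was not tested.

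Of other leukocytes, 1 of 4 tested NK cell genes, 1 of 7 T cell genes and 1 of 6 neutrophil genes passed in edgeR, beside 9.81% of all genes. At an unadjusted p under 0.05 there were 4, 6 and 4, beside 30.7% of all genes. The 3 that passed, named after their values were seen, were Eomes at a log2 fold change of 2.59, Cd2 at 2.24 and S100a8 at 2.68. DESeq2 called 1, 3 and 4 of the NK cell, T cell and neutrophil genes, beside 18.2% of all genes. The summed FPKM of 7 NK cell markers was 11.3, 36.6, 33.5 and 8.27 in TAM-KO (replicates 1 to 4), and at 10.7 in TAM-WT replicate 1 and at most 0.81 in the other TAM-WT libraries, while Ncr1 was at most 0.19 FPKM in any library. For 6 T cell markers it was 13.6, 1.08, 1.46 and 1.52 in TAM-WT and 25.2, 43.0, 36.2 and 15.8 in TAM-KO. NK cells carry Fcgr3 and Fcer1g, of which the log2 fold changes were -0.26 and -0.13. Of 9 neutrophil markers the sum was 47.7 to 74.9 in TAM-WT, 216 in TAM-KO replicate 1 and 60.6 to 73.9 in the other TAM-KO libraries, with Ly6g at most 0.19 FPKM in any library. The most abundant neutrophil genes, Mmp8 at -1.22 and Csf3r at 0.58 on the log2 scale, differed in sign and failed the test. Fcgr4, which neutrophils also express, was at 98.07 FPKM in that replicate 1. The part of NK cells, T cells and neutrophils in the receptor values was not tested.

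Monocyte markers moved in both directions. Of 7 classical markers 3 passed as higher and 1 as lower in edgeR, beside 4.58% and 5.24% of all genes. Plac8 was at a log2 fold change of 1.41 (adjusted p = 0.0123 from edgeR) and F13a1 at -1.48 (adjusted p = 0.0139). Nonclassical monocytes are known for high Fcgr4, and of 8 of their markers 2 passed as higher, Treml4 at 0.68 and Pglyrp1 at 2.03, both named after their values were seen. Their 2 most abundant markers, Nr4a1 and Eno3, had -1.25 and 0.17 and did not pass. The median of the 8 was 0.6. DESeq2 called 6 of them, 4 as higher, beside 18.2% of all genes, and 6 had an unadjusted p under 0.05, beside 30.7%. Of 10 macrophage markers 0 passed in edgeR, 3 in DESeq2 and 4 at an unadjusted p under 0.05, and the median of the 10 was -0.204. Whether a shift among these cells contributed to Fcgr4, Fcgr2b or Fcrls was not tested.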

How the data were processed

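RNA of 4 TAM-WT and 4 TAM-KO libraries, grouped by the genotype in the labels, was compared. The authors deposited expected counts, RSEM's estimates of the reads on each gene, without normalization. They also deposited FPKM, which the authors scaled to gene length and mapped reads. The submitters' processing notes name HISAT2 2.0.4, Bowtie2 2.2.5 and RSEM 1.2.12. The authors' TPM, fold changes, p-values and q-values were not used.

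In the table of TAM-KO replicate 1, 4214 genes are missing, and 629 misplaced values and 1 broken line were set aside. The series table gives 1188 of the missing genes, a selection by difference between the groups. These enter FPKM means, the limma fits and an edgeR alternative, but not the main test. For testing, counts were rounded and fitted with edgeR 4.0.16 under R 4.3.3 (TMM, filterByExpr, glmQLFit and glmQLFTest), with genes missing in TAM-KO replicate 1 fitted on 7 libraries and Benjamini-Hochberg adjustment over both sets together, after a trial on simulated counts. The alternatives included DESeq2 1.42.0 and limma 3.58.1 on FPKM, other scalings, filters and thresholds, the replicate number as a block and leaving out each library. Scaling to macrophage markers was added after the data were seen.

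Some items of the lists are not reported here. The 8 members, the gene lists, the motifs and the tests were chosen with earlier results of these data known. Genes named are the members, every other Fc receptor gene tested, of each pathway list the most abundant gene and the 3 of largest change in each direction among those that passed, and of each cell type list the 2 most abundant, unless said otherwise. Defining markers near 0 (Ms4a1, Pax5, Ly6g, Ncr1 and Mcpt8) were named after their values were seen. Gene positions and promoters are from RefSeq, where all 8 members matched by symbol, and transcripts from GENCODE.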

Additional observations from a re-analysis of the deposited data

Results flagged for a closer look

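In 106 groups of 4 values, of the members, their ratios and the named genes, 5 values from 2 libraries stood apart from the other 3 of their group by a gap larger than Dixon's critical share of the range, where chance gives about 5.3. None of these was a value of the 8 Fc receptor genes or of a ratio between them. In TAM-WT replicate 1, 4 genes of NK cells and T cells stood out. Gzmb was at 6.55 FPKM beside at most 0.47 FPKM in the other TAM-WT libraries, Prf1 at 2.49 FPKM beside at most 0.05 FPKM, Cd3g at 4.58 FPKM beside at most 0.23 FPKM, and Cd8a at 2.16 FPKM beside at most 0.21 FPKM. In the same library Fcgr4 was at 79.5 FPKM, the highest TAM-WT value. Gata2, a marker of mast cells and basophils, was at 0.30 FPKM in TAM-KO replicate 1 beside at most 0.10 FPKM in the other TAM-KO libraries, a level too low to be tested.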

How the results depend on the processing

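The direction of each of the 8 genes was the same in all alternatives and with each library left out. Of 87 log2 fold changes under the alternatives other than leaving out a library, 80 kept their side of the threshold. The number of members that passed was 3, 5 with scaling to macrophage markers, chosen after seeing the data, 0 at an adjusted p of at most 0.01, and 0 to 5 with 1 library left out, as given with the first results. Fcgr1 passed at 0.60 with total reads, 0.49 in DESeq2, 0.58 and 0.59 in limma with pseudocounts of 1 and 0.1, and 0.62 with macrophage markers, and Fcrl5 at 3.10 with macrophage markers, while Fcgr4 did not pass with the replicate block (1.24, adjusted p = 0.066 from edgeR). With 1 library left out the log2 fold changes ran from 1.06 to 1.46 for Fcgr4, -0.87 to -0.64 for Fcgr2b, -1.97 to -1.41 for Fcrls, 0.34 to 0.59 for Fcgr1 and -0.35 to -0.19 for Fcgr3. Fcrl5 could not be tested with at least 10 counts in every library. Of the KEGG pathway 7 genes passed, 19 in DESeq2, 0 at an adjusted p of at most 0.01, 1 with a fold change of at least 2, and 0 to 28 with 1 library left out. Over the 5 Fc receptor lists together 6 passed, 10 with total reads, 17 in DESeq2, 10 with the replicate block, 3 on 7 libraries for every gene, 0 at 0.01 or with a 2-fold change, and 0 (TAM-WT replicate 3, TAM-KO replicate 2 or 3) to 23 (TAM-WT replicate 2) with 1 library left out. The interferon gamma response count of 7 became 4 with the block and 0 without TAM-WT replicate 3 or TAM-KO replicate 2 or 3. Over all genes 568 were higher and 650 lower, and 870 and 480 with total reads, 389 and 238 with macrophage markers, and 860 and 370 in limma on log2(FPKM + 1), with the median log2 fold change at 0.00163, 0.0886, 0.0983 and 0.089, and at 0.106 with a pseudocount of 0.1. The fit with macrophage markers also used 7 libraries for every gene, which by itself gave 311 and 371, and limma also changed the test and the values. The ratio of activating to inhibitory transcripts was 1.83-fold higher, 4.04, 2.31 and 1.41 with Fcgr4, Fcgr1 or Fcgr3 alone. The cause of these differences was not tested. The labels do not say what the replicate numbers stand for. Deviations of same-numbered libraries correlated at -0.374, 0.038, -0.255 and 0.283, and 1 of 4 correlated best with its own number. Whether same-numbered libraries shared a batch was not tested. The block gave 1080 calls over all genes beside 1218, and apart from that of Fcgr4 it changed no member's call. Intervals and standard errors rest on 3 or 4 libraries a group, and the depth limits Fcrl5 most.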

Other observations

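The remaining cell types were described by their marker lists. For comparison, 9.81% of all genes passed in edgeR, 18.2% in DESeq2, and 30.7% had an unadjusted p under 0.05. The plasma cell list had 0 of 4 tested genes that passed in edgeR and in DESeq2, also at an unadjusted p under 0.05, with Xbp1 at 88.4 ± 5.20 FPKM in TAM-WT and 99.1 ± 6.71 FPKM in TAM-KO and Sdc1 at a log2 fold change of -0.27. Of the mast cell and basophil list, whose cells carry Fcer1g with the IgE receptor, 1 gene was tested, Kit, which did not pass (log2 fold change -0.18), and Mcpt8 had no counts. Of 8 dendritic cell genes 1 passed in edgeR, Xcr1 at 1.78, named after its value was seen, and 3 in DESeq2, while Batf3 and Ccr7 had 0.75 and -0.36. Of 5 endothelial genes 1 passed in edgeR, Stab2 at -0.92, also named after its value was seen, and 2 in DESeq2, and Pecam1 and Kdr had 1.06 and 0.64. Fibroblast genes were few, with Col1a1 and Col1a2 at a mean of 1.14 and 1.13 FPKM in TAM-WT and 0 of 5 tested genes that passed in edgeR or DESeq2, and 1 at an unadjusted p under 0.05. Of 3 B cell genes tested 0 passed in edgeR or DESeq2, and 1 had an unadjusted p under 0.05.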
